A study of Rattus norvegicus with 12 samples.

Results

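The libraries described here are the 3 labelled K815Q and the 3 that received the LacZ control virus, 6 of the 12 libraries in the series, chosen by their labels alone. All 4 groups of the series are cultures of primary ventricular cardiomyocytes from newborn rats, harvested 2 days after an adenovirus was added. The virus carried LacZ, a bacterial gene that serves as control cargo, or KAT6A in its wild-type form (WT), with a lysine changed to arginine (K815R), or with the same lysine changed to glutamine (K815Q). Each group had 3 libraries of poly(A)-selected RNA, so the control cells had virus as well, and no group went without it. Strain, sex and the number of animals pooled in a culture are not given in the sources used here, and nothing says that libraries with the same label came from separate cultures. The p-values therefore measure the spread between these libraries, which may be technical.

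KAT6A is a lysine acetyltransferase that modifies histone H3 in a complex with BRPF, ING5 and MEAF6 proteins and helps to keep developmental genes active. Glutamine has no positive charge and is used as a stand-in for acetylated lysine, whereas arginine keeps the charge and cannot be acetylated. Newborn ventricular cultures hold mostly beating cardiomyocytes that are leaving the cell cycle, beside fibroblasts, macrophages, endothelial and smooth muscle cells that can still divide. In such bulk libraries, fewer cells of a type and less RNA per cell cannot be told apart.

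The label was checked first against the gene delivered. Kat6a stood at 45.5, 45.2 and 53.6 CPM in LacZ and at 43.4, 49.97 and 45.7 CPM in the libraries labelled K815Q. The K815Q values were within or just below the LacZ range, and the groups overlapped. The log2 fold change (labelled K815Q minus LacZ, here and below) was -0.05 (SE 0.112, edgeR adjusted p 0.815), with a 95% interval from -0.30 to 0.19; without LacZ replicate 3 it was 0.03. The mean in the WT libraries was 93.0 CPM and in the K815R libraries 108 CPM. The libraries labelled K815Q lay below them by a log2 fold change of -1.01 (edgeR adjusted p 0.00148) and -1.22 (edgeR adjusted p 3.53e-04). CPM are gene counts divided by the library total, after TMM correction, and brought to 1 fixed sum. Each adjusted p is from edgeR's quasi-likelihood test, adjusted by Benjamini-Hochberg over 14063 genes. The counts cannot tell reads of a human KAT6A transgene from those of the rat gene. A rise of Kat6a, which the label implies, was not measured, so the text speaks of libraries labelled K815Q, and each direction rests on that label.

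Unlike Kat6a, another gene set these libraries apart from every other group. Prkaa2, which encodes the alpha 2 catalytic subunit of the energy sensor AMPK, stood at 55.4, 54.8 and 72.7 CPM in LacZ and at 1232, 1134 and 1138 CPM in the libraries labelled K815Q. The groups did not overlap. The log2 fold change was 4.26 (SE 0.175, edgeR adjusted p 4.06e-06), a 19.2-fold difference, and it lay between 4.19 and 4.41 in the 6 fits that each left out 1 library. The mean was 519 CPM in WT and 87.2 CPM in K815R, both below the libraries labelled K815Q (log2 fold change 1.17, edgeR adjusted p 0.0107, and 3.74, edgeR adjusted p 5.26e-05). Of the other AMPK subunits, 1 was called. Prkaa1, the alternative catalytic subunit, had a log2 fold change of -0.11 (SE 0.0918, edgeR adjusted p 0.484). The scaffold subunit Prkab1 rose by 0.18 (SE 0.0484, edgeR adjusted p 0.0229), a call lost without LacZ replicate 2 (0.18, edgeR adjusted p 0.0804), LacZ replicate 3 (0.17, edgeR adjusted p 0.0845) or K815Q replicate 1 (0.15, edgeR adjusted p 0.156). Prkab2 (log2 fold change -0.08, edgeR adjusted p 0.548), Prkag1 (log2 fold change -0.10, edgeR adjusted p 0.263) and Prkag2 (log2 fold change 0.08, edgeR adjusted p 0.558) were not called.

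**Figure D1:**
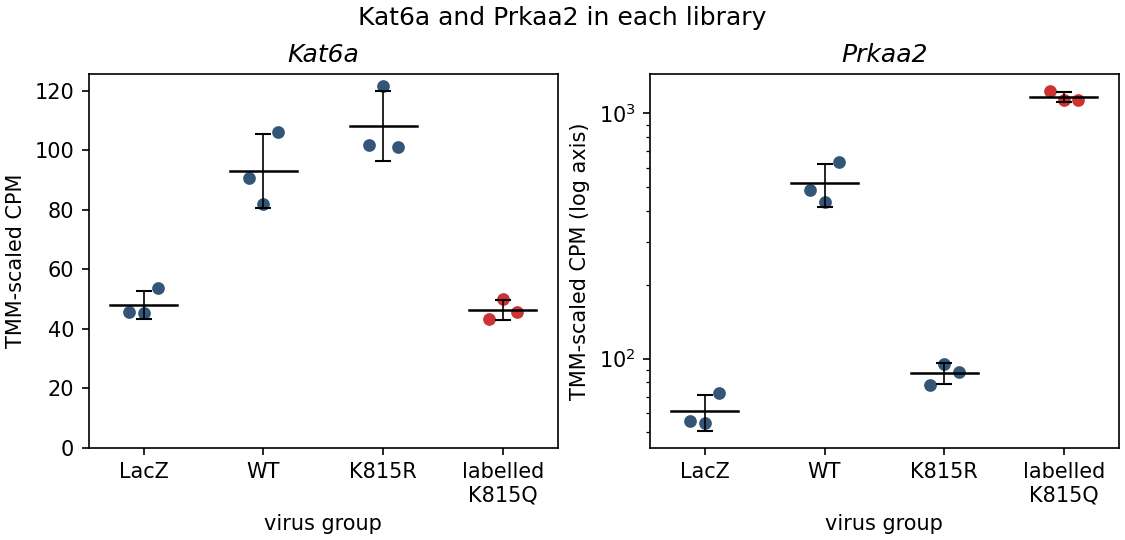
Kat6a (left, linear axis) and Prkaa2 (right, log axis) in TMM-scaled CPM for each library of the 4 groups; points are libraries. Kat6a is between 43.4 and 53.6 CPM in all LacZ and K815Q libraries, while Prkaa2 is between 1134 and 1232 CPM in those labelled K815Q.

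Across all expressed genes, 1104 of 14063 (7.85%) differed from LacZ at an adjusted p under 0.05. Of these, 403 (2.87%) were higher and 701 (4.98%) were lower. The groups did not overlap for 1077 of the called genes and for 28.4% of all genes tested. The typical difference was small: 97 called genes reached 2-fold, 12 of them higher, and 219 reached 1.5-fold. The count depended on single libraries. It was 418 without LacZ replicate 2, 507 without LacZ replicate 3, 360 without K815Q replicate 1 and 733 without K815Q replicate 3, and 278 genes (1.98%) were called in all 6 fits. The LacZ libraries held more gene counts (22095429 to 23870785) than those labelled K815Q (19192015 to 19906699), and the part of this difference in the calls was not tested. On the first principal component, with 43.4% of the variance, the LacZ libraries lay between -22.4 and -10.9 and those labelled K815Q between 11.8 and 22.7.

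The largest single group was the interferon response, the antiviral programme that viral nucleic acid can switch on. Of its 116 tested genes 87 were lower and 0 higher (median log2 fold change -1.01, against 0.01 over all genes tested), and 18 of 30 genes of antigen processing were lower. Among all genes, 4.98% were called lower. Mx2, an antiviral GTPase, stood at 56.8, 81.8 and 42.7 CPM in LacZ and at 3.38, 7.01 and 6.56 CPM in the libraries labelled K815Q. In 43 of the 86 called genes of both lists with a promoter in the RefSeq table (50%), the 300 bases around the start held GAAA, any 2 bases and GAAA on either strand, the core of the interferon-stimulated response element, against 2.86% of all promoters. With both lists set aside, 999 called genes were left. Of these, 403 were higher, with a median log2 fold change of 0.29, and 596 lower, with a median of -0.35. In all 6 leave-one-out fits, 73 of the higher and 116 of the lower genes were called. What follows concerns these.

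**Figure D2:**
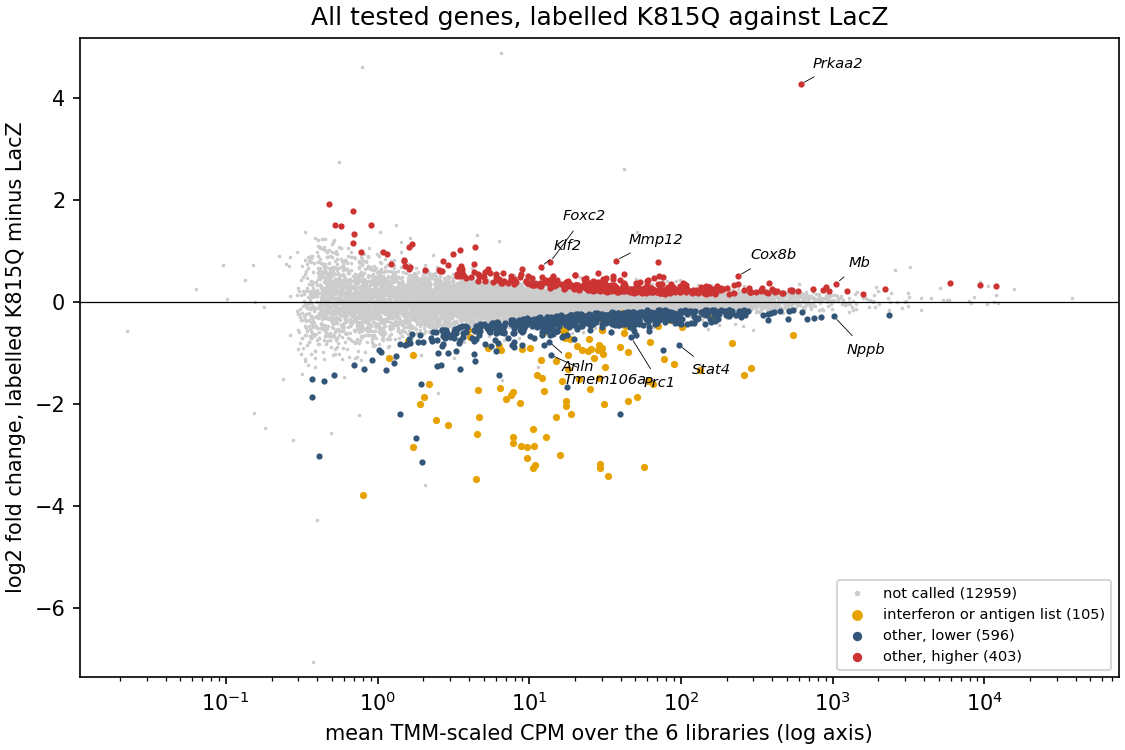
Each point is 1 of the 14063 tested genes: mean TMM-scaled CPM over the 6 libraries (log axis) against the log2 fold change, labelled K815Q minus LacZ. Of the 85 called genes lower by 2-fold or more, 24 are off the interferon and antigen lists, Prkaa2 at 4.26 is the highest of the called genes, and 134 of the 999 called genes off those lists reach 1.5-fold.

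Genes of cell division formed the largest lower group outside the interferon response. Of 59 tested genes of G2 and M phase, the part of the cycle in which duplicated chromosomes are lined up and parted, 29 fell and 0 rose, and 12 fell in all 6 leave-one-out fits. Only 3 of the 59 had a log2 fold change above 0, and the median was -0.40. Among all genes, 4.98% were called lower. Prc1, which bundles the microtubules of the central spindle, stood at 52.0, 63.5 and 58.8 CPM in LacZ and at 34.9, 31.7 and 40.9 CPM in the libraries labelled K815Q. All 3 K815Q values were below all 3 LacZ values, and the log2 fold change was -0.70 (SE 0.113, edgeR adjusted p 0.00293). Anln, the scaffold of the contractile ring, stood at 15.1, 16.9 and 19.0 CPM in LacZ and at 9.30, 10.7 and 9.80 CPM in the libraries labelled K815Q, again without overlap. It fell by 0.78 (SE 0.105, edgeR adjusted p 6.58e-05). Ckap2l, a spindle protein, fell by 0.83 (SE 0.147, edgeR adjusted p 0.00113). The kinesin Kif2c, which takes microtubules apart, fell by 0.66 (SE 0.119, edgeR adjusted p 0.00165), and Dlgap5, which stabilises spindle microtubules, by 0.64 (SE 0.100, edgeR adjusted p 3.82e-04). The call was made in all 6 leave-one-out fits for these 5 genes, as the naming rule required. The number of members called was 15 without LacZ replicate 2, 14 without K815Q replicate 1 and 19 without K815Q replicate 2. Averaged over the 59 genes, log2 CPM relative to the LacZ mean was -0.08, 0.09 and -0.01 in LacZ and -0.41, -0.50 and -0.24 in the libraries labelled K815Q, so K815Q replicate 3 was nearest to LacZ. The same average was between -0.43 and -0.24 in WT and between -0.44 and -0.22 in K815R, and 0 of the 59 genes were called between the libraries labelled K815Q and either group. The symbol Spag5 belongs to 2 gene entries on this list, of which 1 fell (-0.57) and 1 was not called (0.19).

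**Figure D3:**
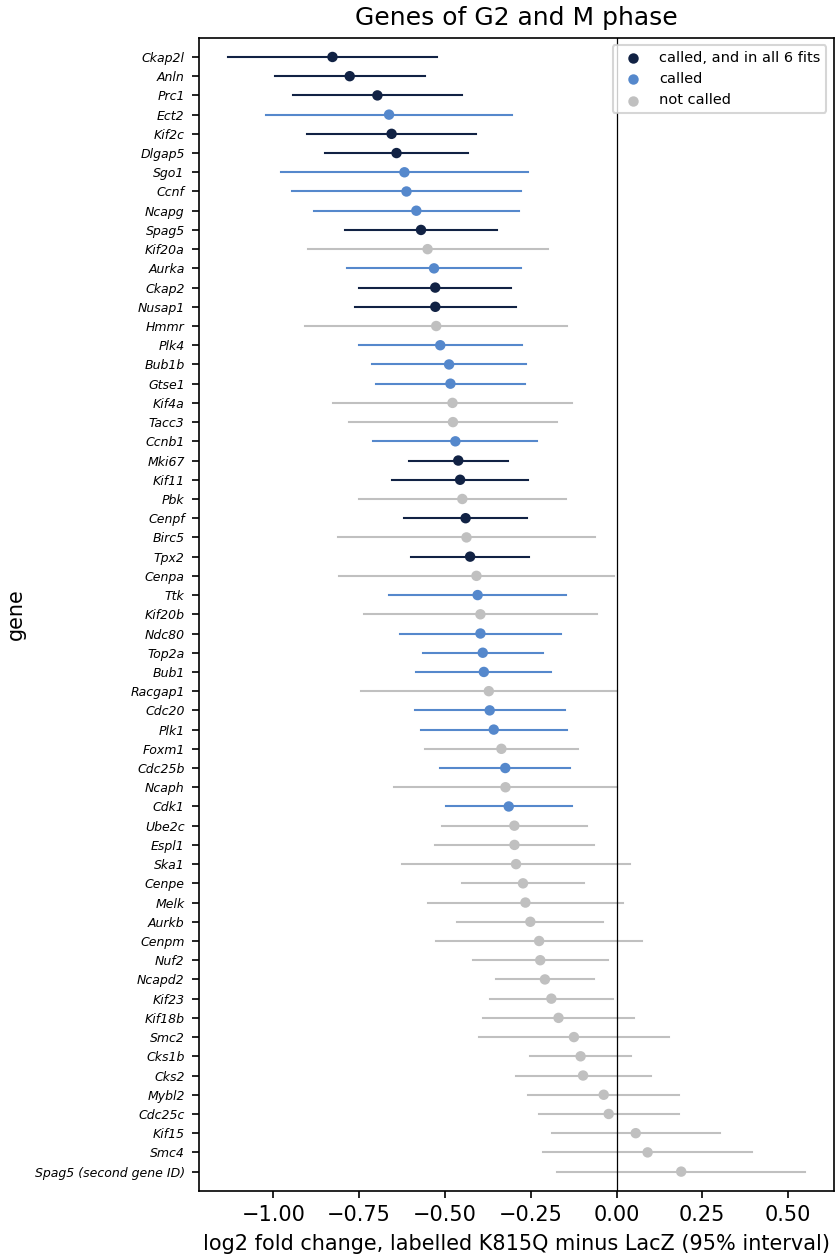
Log2 fold change with its 95% interval for the 59 tested genes of G2 and M phase; dark blue marks the 12 genes called also in all 6 fits without 1 library, light blue the other called genes, grey those not called. Nearly all points lie left of 0, down to -0.83 for Ckap2l.

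Many promoters of this phase share the letters TTTGAA (the cell cycle genes homology region, CHR) and CCAAT (the CCAAT box), which are known as contacts of the DREAM and MuvB complexes and of NF-Y. Both were searched on both strands in the 300 bases from 250 before to 50 after the start, in RefSeq sequence of assembly GRCr8. TTTGAA was found in 19 of 28 promoters of G2 and M genes that fell (67.9%), in 19 of 25 of those not called (76.0%) and in 11.5% of all 10393 promoters matched. CCAAT was found in 71.4%, 72.0% and 37.4%. A match is a description of the letters and not a measured site, and called and uncalled members of the list hold them about as often. The stretches below, chosen after the values were seen, are the 200 bases before the start of 4 members that fell in all 6 leave-one-out fits and hold TTTGAA there, with the letters of both motifs, on either strand, in capitals. Of the 11 members called in all 6 fits that have a promoter in the table, Spag5 also holds it, and Ckap2l, Kif2c, Dlgap5, Nusap1, Kif11 and Cenpf do not in these 200 bases. Prc1 (chr1:143659281-143659480, plus strand) and Ckap2 (chr16:76541914-76542113, plus strand) hold 1 of each, Anln (chr8:29197514-29197713, minus strand) holds TTTGAA on both strands and no CCAAT, and Mki67 (chr1:199952594-199952793, minus strand) holds 2 and 4, one pair of them overlapping.
Prc1: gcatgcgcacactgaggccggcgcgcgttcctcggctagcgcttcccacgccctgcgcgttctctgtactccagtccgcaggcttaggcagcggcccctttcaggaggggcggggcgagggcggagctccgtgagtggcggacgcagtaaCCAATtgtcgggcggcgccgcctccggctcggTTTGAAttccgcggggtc
Ckap2: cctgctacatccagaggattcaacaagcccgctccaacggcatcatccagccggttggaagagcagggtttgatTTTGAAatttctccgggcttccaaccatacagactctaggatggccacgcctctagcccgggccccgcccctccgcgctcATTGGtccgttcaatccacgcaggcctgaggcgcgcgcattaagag
Anln: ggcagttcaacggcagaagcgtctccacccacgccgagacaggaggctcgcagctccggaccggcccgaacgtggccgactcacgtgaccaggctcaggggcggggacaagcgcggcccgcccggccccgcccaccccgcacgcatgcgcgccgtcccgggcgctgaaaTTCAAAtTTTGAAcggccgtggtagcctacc
Mki67: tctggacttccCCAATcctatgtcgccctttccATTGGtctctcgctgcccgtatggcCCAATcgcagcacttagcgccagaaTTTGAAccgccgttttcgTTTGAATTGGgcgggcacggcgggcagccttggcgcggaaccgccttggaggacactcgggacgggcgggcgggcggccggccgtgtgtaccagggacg
Mki67, the proliferation antigen Ki-67, fell from 41.1, 46.6 and 45.2 CPM in LacZ to 30.4, 32.0 and 34.1 CPM in the libraries labelled K815Q, a log2 fold change of -0.46 (SE 0.0694, edgeR adjusted p 2.07e-04). Ckap2, a spindle protein, had a log2 fold change of -0.53 (SE 0.107, edgeR adjusted p 0.00376).

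Genes of S phase, in which DNA is copied, moved the same way in smaller number. Of 44 tested, 8 fell and 0 rose (median log2 fold change -0.13), beside 4.98% of all genes called lower. The 2 that fell in all 6 leave-one-out fits, named after their values were seen, were Mcm3, a subunit of the replicative helicase (log2 fold change -0.42, edgeR adjusted p 0.00207), and Rrm1, the large subunit of ribonucleotide reductase (log2 fold change -0.34, edgeR adjusted p 5.61e-04). Rrm2, the small subunit of that enzyme, stood at 10.9, 14.9 and 14.1 CPM in LacZ and at 6.602, 8.43 and 9.48 CPM in the libraries labelled K815Q and had a log2 fold change of -0.70 (SE 0.159, edgeR adjusted p 0.0152). Its groups did not overlap. The call for Rrm2 was lost without LacZ replicate 2, LacZ replicate 3 or K815Q replicate 1 (log2 fold change between -0.83 and -0.57 over the 6 fits). The count for the list was 2 without LacZ replicate 2, 3 without LacZ replicate 3, 3 without K815Q replicate 1, 4 without K815Q replicate 2 and 5 without K815Q replicate 3.

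On the list of targets of p53, the transcription factor that halts the cycle after damage, some genes were lower as well. Of 30 tested, 8 fell and 1 rose (median -0.07). The shares of all genes were 4.98% lower and 2.87% higher. Cdkn1a, the inhibitor p21 that stops cyclin-dependent kinases, stood at 184, 203 and 177 CPM in LacZ and at 156, 132 and 149.9 CPM in the libraries labelled K815Q. Its groups did not overlap, and it fell by 0.37 (SE 0.0671, edgeR adjusted p 0.00207). Aen, a nuclease, fell by 0.37 (SE 0.0646, edgeR adjusted p 9.44e-04). Cdkn2a, which encodes the cell cycle inhibitors INK4a and ARF, was the member that rose (0.56, SE 0.139, edgeR adjusted p 0.0151). ARF acts upstream of p53, so this rise is not read as that of a p53 target. Cdkn1a and Cdkn2a were named after their values were seen. Of the 9 calls, 4 were left without LacZ replicate 2, 5 without LacZ replicate 3 and 4 without K815Q replicate 1.

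Several transcription factors of heart development were higher. Of 42 on the list, 6 rose and 0 fell, beside 2.87% of all genes called higher: Foxc2, Irx3, Irx1, Irx5, Irx4 and Gata6. The median of the list was 0.03, so the rise was that of a few members, 4 of the 6 being Iroquois homeobox genes, which pattern the ventricle. Foxc2, a forkhead factor of outflow tract and vessels, stood at 11.4, 8.87 and 10.0 CPM in LacZ and at 21.1, 16.4 and 14.6 CPM in the libraries labelled K815Q. The groups did not overlap, and the log2 fold change was 0.78 (SE 0.122, edgeR adjusted p 6.66e-04). The mean in WT was 11.2 CPM, and the libraries labelled K815Q lay above it by 0.63 (edgeR adjusted p 0.0158). Against K815R, with a mean of 13.95 CPM, the difference was 0.31 (edgeR adjusted p 0.314). Irx3 stood at 54.8, 49.2 and 50.1 CPM in LacZ and at 79.5, 68.3 and 59.4 CPM in the libraries labelled K815Q, with K815Q replicate 1 highest, and rose by 0.43 (SE 0.0750, edgeR adjusted p 0.00143). Irx4, the ventricular member of the family, rose by 0.33 (edgeR adjusted p 7.04e-04) and Irx5 by 0.38 (edgeR adjusted p 0.00274). Foxc2, Irx3, Irx4 and Irx5 were called in all 6 leave-one-out fits. Irx1 had a log2 fold change of 0.41 (edgeR adjusted p 0.0102) and Gata6 of 0.20 (edgeR adjusted p 0.0378).

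Among immediate early genes, which cells induce within minutes of a stimulus, 4 of 35 rose and 2 fell (median 0.08). The shares of all genes were 2.87% higher and 4.98% lower, so the 2 that fell were near that share. Klf2, a zinc finger factor known from vessels under flow, stood at 9.05, 10.2 and 8.28 CPM in LacZ and at 14.8, 14.6 and 14.8 CPM in the libraries labelled K815Q. The K815Q values were nearly equal and above all LacZ values, and the log2 fold change was 0.69 (SE 0.0899, edgeR adjusted p 4.80e-05). Against WT, whose mean was 10.3 CPM, it was 0.52 (edgeR adjusted p 0.00456), and against K815R it was 0.12 (edgeR adjusted p 0.642). Zfp36, which encodes the mRNA-destabilising protein tristetraprolin, moved down, from 58.9, 55.9 and 54.1 CPM in LacZ to 34.0, 42.3 and 43.1 CPM in the libraries labelled K815Q. There was no overlap, its log2 fold change was -0.50 (SE 0.0808, edgeR adjusted p 7.51e-04), and against WT it was -0.38 (edgeR adjusted p 0.0252). Against K815R it was -0.26 (edgeR adjusted p 0.195). Myc rose by 0.33 (SE 0.0736, edgeR adjusted p 0.00731), a call lost without LacZ replicate 3 (0.27, edgeR adjusted p 0.0546). Without that library the list had 3 called genes.

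Signalling genes moved in small numbers. On the list of Notch and Wnt genes 4 of 36 rose and 1 fell (median 0.01). Hes1, the repressor that Notch induces, stood at 60.8, 65.7 and 65.5 CPM in LacZ and at 105, 83.8 and 78.9 CPM in the libraries labelled K815Q, without overlap, and rose by 0.48 (SE 0.0836, edgeR adjusted p 0.00244). Wnt4, a secreted Wnt ligand, rose by 0.50 (SE 0.112, edgeR adjusted p 0.00792), and lay above WT by 0.60 (edgeR adjusted p 0.00963). Against K815R it was at -0.02 (edgeR adjusted p 0.959). Without LacZ replicate 2 its call against LacZ was lost (0.44, edgeR adjusted p 0.0502). Without that library 1 gene of the list was called, and without K815Q replicate 3 there were 3. Of 53 growth factors and receptors 5 rose and 1 fell (median -0.01). Both lists stand beside 2.87% of all genes higher and 4.98% lower, and the share that fell was below that of all genes in each. Igf1, the insulin-like growth factor, stood at 30.5, 27.5 and 32.3 CPM in LacZ and at 41.7, 45.7 and 36.3 CPM in the libraries labelled K815Q, and rose by 0.45 (SE 0.0933, edgeR adjusted p 0.00673). Csf1, the growth factor on which macrophages depend, fell from 97.2, 103 and 106 CPM in LacZ to 83.6, 78.7 and 78.2 CPM in the libraries labelled K815Q (log2 fold change -0.35, SE 0.0498, edgeR adjusted p 1.17e-04). Neither gene's groups overlapped, and both were called in all 6 leave-one-out fits. Without K815Q replicate 1 the list's count was 3. Id1, a target of BMP signalling, rose by 0.55 (SE 0.109, edgeR adjusted p 0.00867) and lay above WT by 0.50 (edgeR adjusted p 0.0475). Against K815R it was at 0.08 (edgeR adjusted p 0.822), and its call against LacZ was lost without LacZ replicate 3 (0.52, edgeR adjusted p 0.0558).

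The genes that cardiomyocytes use to contract and to grow showed mixed changes. On the list of hypertrophy and fetal genes, the set that enlarging cardiomyocytes switch back on, 6 of 19 fell and 0 rose (median -0.14), beside 4.98% of all genes called lower. Xirp2, an actin-binding protein of the intercalated disc, stood at 113, 108 and 126 CPM in LacZ and at 81.0, 88.9 and 87.2 CPM in the libraries labelled K815Q. The groups did not overlap, and it fell by 0.43 (SE 0.0693, edgeR adjusted p 6.66e-04). Enah, a regulator of actin filament growth, fell by 0.34 (SE 0.0625, edgeR adjusted p 0.00166). Both were called in all 6 leave-one-out fits. Nppb, which encodes the natriuretic peptide BNP, fell by 0.29 (SE 0.0650, edgeR adjusted p 0.00968). It lay below K815R by a log2 fold change of -0.42 (edgeR adjusted p 0.00293), and against WT, with a mean of 902 CPM beside 920.03 CPM, the difference was 0.03 (edgeR adjusted p 0.887). Its call against LacZ was lost without LacZ replicate 2 (-0.27, edgeR adjusted p 0.0561), K815Q replicate 1 (-0.26, edgeR adjusted p 0.0741) or K815Q replicate 3 (-0.24, edgeR adjusted p 0.0553). Nppa (log2 fold change -0.0036, edgeR adjusted p 0.984), Myh6 (log2 fold change -0.02, edgeR adjusted p 0.876) and Myh7 (log2 fold change -0.16, edgeR adjusted p 0.293), the atrial peptide and both cardiac myosin heavy chains, were not called. Without LacZ replicate 2 or K815Q replicate 1 the list had 2 called genes, and without LacZ replicate 3 or K815Q replicate 3 it had 3.

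Some other genes of the contractile cell were called, in both directions. Of 47 genes of sarcomere and Z-disc 4 fell and 1 rose (median 0.02), not far from the 4.98% lower and 2.87% higher of all genes. Xirp2 was the member called in all 6 leave-one-out fits. Myl1, a myosin light chain of fast skeletal muscle, was on no list and met the naming rule: it stood at 14.6, 18.7 and 14.8 CPM in LacZ and at 8.16, 8.33 and 10.3 CPM in the libraries labelled K815Q, did not overlap, and fell by 0.84 (SE 0.116, edgeR adjusted p 9.13e-05). On the list of 46 ion channels 5 fell and 2 rose (median 0.07), beside the same shares of all genes. Kcnj2, the inward rectifier that sets the resting potential, stood at 17.2, 19.7 and 17.7 CPM in LacZ and at 8.63, 14.5 and 13.5 CPM in the libraries labelled K815Q, lowest in K815Q replicate 1. Its log2 fold change was -0.57 (SE 0.138, edgeR adjusted p 0.0221), and the call was lost without LacZ replicate 2 (-0.52, edgeR adjusted p 0.0859) or LacZ replicate 3 (-0.59, edgeR adjusted p 0.0754). The channel count was 3 without either of these, 2 without K815Q replicate 1 and 4 without K815Q replicate 3. The sarcomere count was 1 without LacZ replicate 2 or LacZ replicate 3, 2 without K815Q replicate 1 or K815Q replicate 3 and 3 without LacZ replicate 1. Mb, myoglobin, rose from 969, 900 and 915 CPM in LacZ to 1214, 1114 and 1240.2 CPM in the libraries labelled K815Q. Its groups did not overlap, its log2 fold change was 0.36 (SE 0.0683, edgeR adjusted p 0.00267), and it lay above K815R by 0.34 (edgeR adjusted p 0.0305). Against WT the difference was 0.05 (edgeR adjusted p 0.812).

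Few nuclear genes of the respiratory chain passed the test, though most had a log2 fold change above 0. Of 77 nuclear genes for its subunits, 73 had a log2 fold change above 0, beside 51.7% of all genes tested. The median was 0.14, and 6 rose by the test and 0 fell, beside 2.87% of all genes called higher. Averaged over the list, log2 CPM relative to the LacZ mean was between -0.06 and 0.04 in LacZ and between 0.09 and 0.18 in the libraries labelled K815Q. Cox8b, the muscle form of a complex IV subunit, stood at 214, 187 and 188 CPM in LacZ and at 284, 280.2 and 271 CPM in the libraries labelled K815Q. No K815Q value lay within the LacZ range, and the log2 fold change was 0.50 (SE 0.0675, edgeR adjusted p 1.14e-04). It was called in all 6 leave-one-out fits. The other 5 had log2 fold changes between 0.19 and 0.22, and the count was 1 without LacZ replicate 2, LacZ replicate 3 or K815Q replicate 1, and 2 without K815Q replicate 3. It was 10 without LacZ replicate 1 and 12 without K815Q replicate 2. At an unadjusted p under 0.05 the list had 50 genes, and all genes tested had 3409 of 14063.

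The mRNAs of mitochondrial DNA and of ribosomal proteins passed the test to different degrees. All 13 mitochondrial mRNAs had a log2 fold change above 0 (median 0.31), and 3 rose, beside 2.87% of all genes called higher. Mt-co2, a complex IV subunit, stood at 8825, 7685 and 8539 CPM in LacZ and at 11124, 10531 and 9833 CPM in the libraries labelled K815Q, and rose by 0.33 (SE 0.0775, edgeR adjusted p 0.0123), without overlap. Its call was lost without LacZ replicate 2 (0.27, edgeR adjusted p 0.0821) or K815Q replicate 1 (0.29, edgeR adjusted p 0.0936), when 0 genes of the list were called; without K815Q replicate 2 there was 1, and without K815Q replicate 3 there were 5. Of 75 cytosolic ribosomal proteins 72 were above 0 (median 0.12) and 3 rose, a share near the 2.87% of all genes called higher. Rpl34 rose by 0.36 (SE 0.0604, edgeR adjusted p 7.31e-04) and was called in all 6 leave-one-out fits. The ribosomal count was 1 without LacZ replicate 2, LacZ replicate 3 or K815Q replicate 1, and 8 without LacZ replicate 1. The list's averages met: the highest LacZ library was at 0.102 and the lowest K815Q library at 0.0979. Of 71 mitochondrial ribosomal proteins 4 rose and 0 fell (median 0.06), and K815Q replicate 2 (average 0.00362) lay within the LacZ range. The count was 0 without LacZ replicate 2, LacZ replicate 3 or K815Q replicate 1, and 1 without K815Q replicate 3. Ribosomal and respiratory chain mRNAs are mostly short. No lengths from the build of the counts were at hand, and the part of length in these lists was not tested. Ppargc1a, the coactivator of mitochondrial biogenesis, was not called (log2 fold change -0.08, edgeR adjusted p 0.610). Pink1, the kinase that marks damaged mitochondria, rose from 329, 302 and 304 CPM in LacZ to 393, 371 and 369 CPM in the libraries labelled K815Q, a log2 fold change of 0.28 (SE 0.0550, edgeR adjusted p 0.00306), and was called in all 6 fits.

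Lipid synthesis was lower in a part of its genes. Of 33 genes of cholesterol and fatty acid synthesis 6 fell and 0 rose (median -0.09), beside 4.98% of all genes lower, and 3 of the 6 fell in all 6 leave-one-out fits. Stard4, which carries sterols between membranes, stood at 13.7, 16.2 and 16.3 CPM in LacZ and at 9.82, 10.7 and 10.5 CPM in the libraries labelled K815Q, without overlap, and fell by 0.57 (SE 0.0903, edgeR adjusted p 3.59e-04). Acaca, acetyl-CoA carboxylase, the first step of fatty acid synthesis and an AMPK substrate, fell by 0.40 (SE 0.0737, edgeR adjusted p 0.00172). The lipid synthesis count was 3 without LacZ replicate 2, LacZ replicate 3 or K815Q replicate 1. Acaca is also on the list of AMPK and mTOR effectors, of which 4 of 29 fell and 1 rose (median -0.08). Among all genes 4.98% were lower and 2.87% higher. The effector list had 1 called gene without LacZ replicate 2, LacZ replicate 3 or K815Q replicate 1, and 3 without K815Q replicate 3. Pdk4, the kinase that turns off pyruvate dehydrogenase, stood at 6.79, 7.49 and 7.79 CPM in LacZ and at 3.38, 6.14 and 5.89 CPM in the libraries labelled K815Q, with K815Q replicate 1 lowest. Its log2 fold change was -0.52 (SE 0.147, edgeR adjusted p 0.0349), and the call was lost without LacZ replicate 2 (-0.50, edgeR adjusted p 0.101), LacZ replicate 3 (-0.47, edgeR adjusted p 0.131) or K815Q replicate 1 (-0.29, edgeR adjusted p 0.202). Of 24 genes of glucose uptake and glycolysis edgeR's quasi-likelihood test called 0, beside 7.85% of all genes, with 3 at an unadjusted p under 0.05 and 1 called by DESeq2. Without K815Q replicate 2 there was 1.

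Genes of the stress pathways were called in small numbers, and their shares differed between lists. Of 40 genes of the integrated stress response, by which cells answer amino acid shortage and unfolded proteins, 4 rose and 0 fell (median 0.06). This was a larger share than the 2.87% of all genes higher. Trib3, a pseudokinase that this response induces, stood at 21.2, 18.3 and 18.9 CPM in LacZ and at 28.2, 25.5 and 26.2 CPM in the libraries labelled K815Q, without overlap, and rose by 0.45 (SE 0.0803, edgeR adjusted p 0.00113). It was called in all 6 leave-one-out fits. The count was 8 without LacZ replicate 1 and 2 without K815Q replicate 1. Of 29 antioxidant targets of NRF2 4 fell and 0 rose (median -0.03), a larger share than the 4.98% of all genes lower. Gclc, the catalytic subunit for the first step of glutathione synthesis, fell from 66.7, 73.5 and 71.6 CPM in LacZ to 53.6, 56.7 and 61.2 CPM in the libraries labelled K815Q, a log2 fold change of -0.30 (SE 0.0613, edgeR adjusted p 0.00361), and was called in all 6 fits; the NRF2 count was 2 without LacZ replicate 3 and 1 without K815Q replicate 1. Of 34 heat shock proteins and chaperones 2 fell and 0 rose (median -0.05), near the share of all genes lower. Of these, 0 were called without LacZ replicate 2 or K815Q replicate 1. Without LacZ replicate 3 or K815Q replicate 2 there was 1. Of 23 ER chaperones and genes of the unfolded protein response 1 rose, Herpud1, a factor of ER-associated degradation (log2 fold change 0.24, edgeR adjusted p 0.00468), and 1 fell, Edem1, which helps to degrade misfolded glycoproteins (log2 fold change -0.27, edgeR adjusted p 0.0358). Edem1 was not called without LacZ replicate 2, LacZ replicate 3, K815Q replicate 1 or K815Q replicate 3, and without LacZ replicate 1 this list had 4 called genes. Of 31 proteasome genes edgeR's quasi-likelihood test called 0, beside 7.85% of all genes, with 2 at an unadjusted p under 0.05 and 0 called by DESeq2.

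Genes of the extracellular matrix were called in both directions in similar numbers. Of 56 glycoproteins and crosslinking enzymes 7 fell and 6 rose (median -0.03), and of 41 proteases and inhibitors 4 fell and 4 rose (median 0.01). For comparison, 4.98% of all genes fell and 2.87% rose. Tnc, tenascin C, a glycoprotein of remodelling tissue, stood at 178, 177 and 183 CPM in LacZ and at 132, 142 and 137 CPM in the libraries labelled K815Q. The groups were well apart, and it fell by 0.39 (SE 0.0568, edgeR adjusted p 1.57e-04). Tnc was called in all 6 leave-one-out fits. Loxl3, a lysyl oxidase, fell by 0.42 (SE 0.0887, edgeR adjusted p 0.00494), and not by the test without LacZ replicate 2 (-0.30, edgeR adjusted p 0.0502). The glycoprotein count was 2 without LacZ replicate 2 or K815Q replicate 1, 4 without LacZ replicate 3 and 7 without K815Q replicate 3. The protease count was 2 without LacZ replicate 2 and 4 without LacZ replicate 3, K815Q replicate 1 or K815Q replicate 3. Of 36 collagens 1, Col8a2, rose (log2 fold change 0.37, SE 0.108, edgeR adjusted p 0.0401), a call lost without LacZ replicate 2, LacZ replicate 3, K815Q replicate 1 or K815Q replicate 2. That 1 of 36 was near the share of all genes that rose.

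Markers of macrophages rose most often among the cell types. Of 36 tested, 10 rose and 2 fell (median 0.28), and 6 and 1 did so in all 6 leave-one-out fits. For all genes the shares were 2.87% higher and 4.98% lower, so the 2 that fell were near that share. Mmp12, the macrophage elastase, stood at 31.9, 20.9 and 28.2 CPM in LacZ and at 48.2, 49.97 and 43.8 CPM in the libraries labelled K815Q. The groups did not overlap, and the log2 fold change was 0.81 (SE 0.131, edgeR adjusted p 0.00413). Laptm5, a lysosomal membrane protein of blood cells, stood at 12.8, 9.58 and 13.1 CPM in LacZ and at 17.3, 18.1 and 15.3 CPM in the libraries labelled K815Q, and rose by 0.52 (SE 0.104, edgeR adjusted p 0.00384). The 2 that fell, named after their values were seen, were the Fc receptor Fcgr3a (log2 fold change -1.31, edgeR adjusted p 2.24e-05) and the surface receptor Adgre1 (log2 fold change -0.54, edgeR adjusted p 0.0356), the latter in 0 of the 6 leave-one-out fits. The defining markers Ptprc (log2 fold change 0.28, edgeR adjusted p 0.367), Cd68 (log2 fold change 0.31, edgeR adjusted p 0.0595) and Csf1r (log2 fold change 0.18, edgeR adjusted p 0.289) were not called. The list's summed level was 549 to 684 CPM in LacZ and 747 to 839 CPM in the libraries labelled K815Q. Gpnmb alone had a mean of 334 CPM in LacZ and 429 CPM in those libraries, so the sum leans on 1 gene. Averaged over the 36 genes, log2 CPM relative to the LacZ mean was between -0.132 and 0.125 in LacZ. In the libraries labelled K815Q it was between 0.131 and 0.279, so the nearest libraries almost met. The same average was between 0.126 and 0.211 in WT and between 0.163 and 0.238 in K815R. The count was 7 without LacZ replicate 2 or K815Q replicate 1 and 8 without LacZ replicate 3.

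Other cell types were checked the same way, and their counts stand beside 2.87% of all genes called higher and 4.98% lower. Summed cardiomyocyte markers were 40123 to 41773 CPM in LacZ and 41998 to 44565 CPM in the libraries labelled K815Q, and 15 of 19 had a log2 fold change above 0 (median 0.11). Of these markers 3 rose and 0 fell: Mb, Pln, which encodes the calcium pump inhibitor phospholamban (log2 fold change 0.24, edgeR adjusted p 0.00634), and Ckm, the muscle creatine kinase (log2 fold change 0.21, edgeR adjusted p 0.0226). There was 1 without LacZ replicate 2 or K815Q replicate 1. The defining markers Tnnt2, Myh6 and Actn2 were detected in all 6 libraries and not called. Fibroblast markers summed to 14264 to 15202 CPM and 14474 to 15475 CPM, and 4 of 23 rose, among them Tcf21, a factor of epicardium and fibroblasts (log2 fold change 0.53, SE 0.0993, edgeR adjusted p 0.00236); without LacZ replicate 2 there was 1, and without LacZ replicate 3, K815Q replicate 1 or K815Q replicate 2 there were 2. Pdgfra and Col1a1 were not called. Endothelial markers summed to 568 to 622 CPM and 508 to 630 CPM; edgeR's quasi-likelihood test called 0 of 28, with 6 at an unadjusted p under 0.05, 3 called by DESeq2 and 7 called without K815Q replicate 2. Smooth muscle markers summed to 8992 to 9522 CPM and 8918 to 9234 CPM; 1 of 18 rose, Pdgfrb (log2 fold change 0.21, edgeR adjusted p 0.0410), a call kept only without LacZ replicate 1. The list had 2 called genes without LacZ replicate 1 or K815Q replicate 3. Neural markers summed to 92.5 to 95.6 CPM and 99.8 to 118 CPM, and 2 of 12 rose, with 1 called without LacZ replicate 1, LacZ replicate 2 or K815Q replicate 1. Tubb3, the beta tubulin known from neurons, rose (log2 fold change 0.56, SE 0.0776, edgeR adjusted p 9.13e-05) while Sox10, the defining factor of Schwann cells, was between 0.0820 and 0.267 CPM in all 6 libraries. Erythroid markers summed to 23.5 to 35.1 CPM and 15.7 to 22.5 CPM. Of 7 erythroid markers 2 fell, the globins Hba-a2 (1 of 2 gene entries with that symbol, near copies that can share reads; log2 fold change -0.87, edgeR adjusted p 0.0429) and Hbb (log2 fold change -0.74, edgeR adjusted p 0.0401), and neither was called without LacZ replicate 1, LacZ replicate 2 or K815Q replicate 3. Without K815Q replicate 2 there was 1. The T cell marker Cd3e had 0 counts in all 6 libraries, and Cd8a was between 0.938 and 1.14 CPM. The part of cell composition in the gene groups above was not tested.

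Genes on the lists of chromatin acetylation were not called. At the 7.85% of all genes called, lists of this size would hold few calls, so their absence says little. Of 14 genes of the KAT6A complex edgeR's quasi-likelihood test called 0, with 4 at an unadjusted p under 0.05 and 0 called by DESeq2 (median 0.04). Of 27 acetyltransferases, deacetylases and acetyl-lysine readers it called 0, with 4 at an unadjusted p under 0.05 and 0 called by DESeq2 (median 0.04). In both lists 0 genes were called in any leave-one-out fit. Of all 14063 genes tested, 3409 had an unadjusted p under 0.05.

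Further genes were named by size of change. The naming rule was met by 160 genes and gives the 12 highest and the 12 lowest, of which Prkaa2, Mmp12, Foxc2, Klf2, Tubb3, Tcf21, Laptm5, Cox8b, Myl1, Ckap2l, Anln, Prc1, Kif2c and Dlgap5 are described above. Pik3ip1, an inhibitor of PI 3-kinase, stood at 63.3, 59.3 and 55.1 CPM in LacZ and at 83.6, 82.2 and 86.1 CPM in the libraries labelled K815Q, with groups well apart and a log2 fold change of 0.50 (SE 0.0542, edgeR adjusted p 4.22e-06). Gcgr, the glucagon receptor, rose by 0.57 (SE 0.115, edgeR adjusted p 0.00357), Dcp1b, a cofactor of mRNA decapping, by 0.56 (SE 0.117, edgeR adjusted p 0.00468), and Lrrc17, a secreted leucine-rich repeat protein, by 0.53 (SE 0.0927, edgeR adjusted p 0.00106). Stat4, a transcription factor that cytokine receptors activate, stood at 113, 139.8 and 122 CPM in LacZ and at 64.6, 72.8 and 71.1 CPM in the libraries labelled K815Q. Without overlap of the groups, it fell by 0.84 (SE 0.0836, edgeR adjusted p 2.24e-05). Tmem106a, a membrane protein, was the lowest of the rule's genes at -1.04 (SE 0.173, edgeR adjusted p 0.00376), with LacZ replicate 2 the highest library at 24.2 CPM. Abca4, a lipid transporter known from photoreceptors, fell by 0.96 (SE 0.168, edgeR adjusted p 0.00162). Ro60, an RNA-binding protein, fell by 0.70 (SE 0.118, edgeR adjusted p 7.14e-04), Asb4, a substrate adaptor of a ubiquitin ligase, by 0.69 (SE 0.0914, edgeR adjusted p 5.80e-05), and Yipf7, a membrane protein, by 0.64 (SE 0.107, edgeR adjusted p 7.60e-04).

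**Figure D4:**
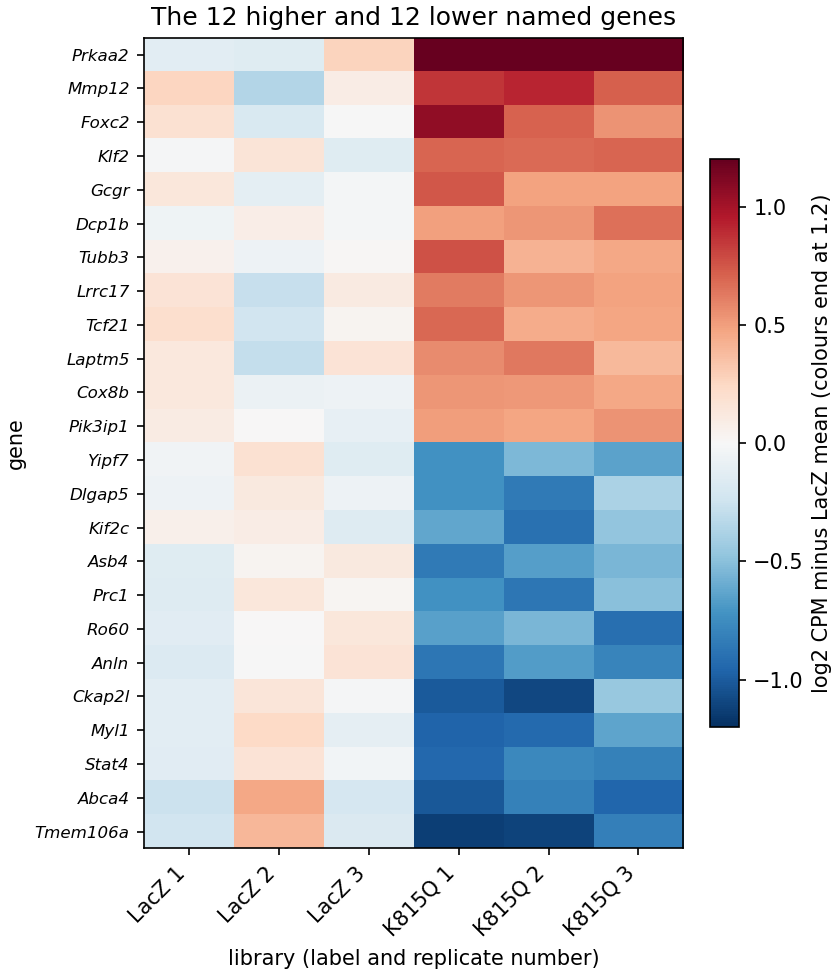
Log2 CPM of the 12 highest and 12 lowest genes of the naming rule, relative to the LacZ mean, in each of the 6 libraries; red is higher, blue lower, and colours end at 1.2. The naming rule required groups without overlap, so 1 direction in all 3 K815Q libraries was fixed by the choice of genes. LacZ replicate 2 is the most extreme control for several lower genes.

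In direct comparison with the KAT6A groups, fewer genes were called. Against WT 1.07% of all genes were called and against K815R 0.363%. These comparisons share the K815Q libraries with the one against LacZ. Of the 1104 genes called against LacZ, with the interferon and antigen lists included, 40 were also called against WT. Of the same 1104, 23 were also called against K815R, and 5 against both groups: Prkaa2, Ppp1r10, Scarf2, Spry4 and Epha2, named after their values were seen. Ppp1r10, a nuclear regulator of protein phosphatase 1, stood at 65.2, 66.7 and 66.6 CPM in LacZ and at 90.8, 77.3 and 85.2 CPM in the libraries labelled K815Q. It was above LacZ by 0.35 (SE 0.0592, edgeR adjusted p 7.00e-04), above WT by 0.28 (edgeR adjusted p 0.0213) and above K815R by 0.31 (edgeR adjusted p 0.0168). Spry4, an inhibitor of growth factor receptor signalling, stood at 76.8, 79.4 and 75.7 CPM in LacZ and at 48.9, 65.3 and 57.4 CPM in the libraries labelled K815Q. It was below LacZ (log2 fold change -0.43, SE 0.0708, edgeR adjusted p 6.92e-04), WT (-0.35, edgeR adjusted p 0.0162) and K815R (-0.39, edgeR adjusted p 0.0147). Scarf2, a scavenger receptor, was above LacZ by 0.32 (SE 0.0735, edgeR adjusted p 0.00935), a call lost without LacZ replicate 2 (0.25, edgeR adjusted p 0.0756) or K815Q replicate 1 (0.29, edgeR adjusted p 0.0673). Epha2, an ephrin receptor, was below LacZ (log2 fold change -0.26, SE 0.0728, edgeR adjusted p 0.0320), a call lost without LacZ replicate 2 (-0.23, edgeR adjusted p 0.128), LacZ replicate 3 (-0.25, edgeR adjusted p 0.0969), K815Q replicate 1 (-0.20, edgeR adjusted p 0.191) or K815Q replicate 3 (-0.27, edgeR adjusted p 0.0667).

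**Figure D5:**
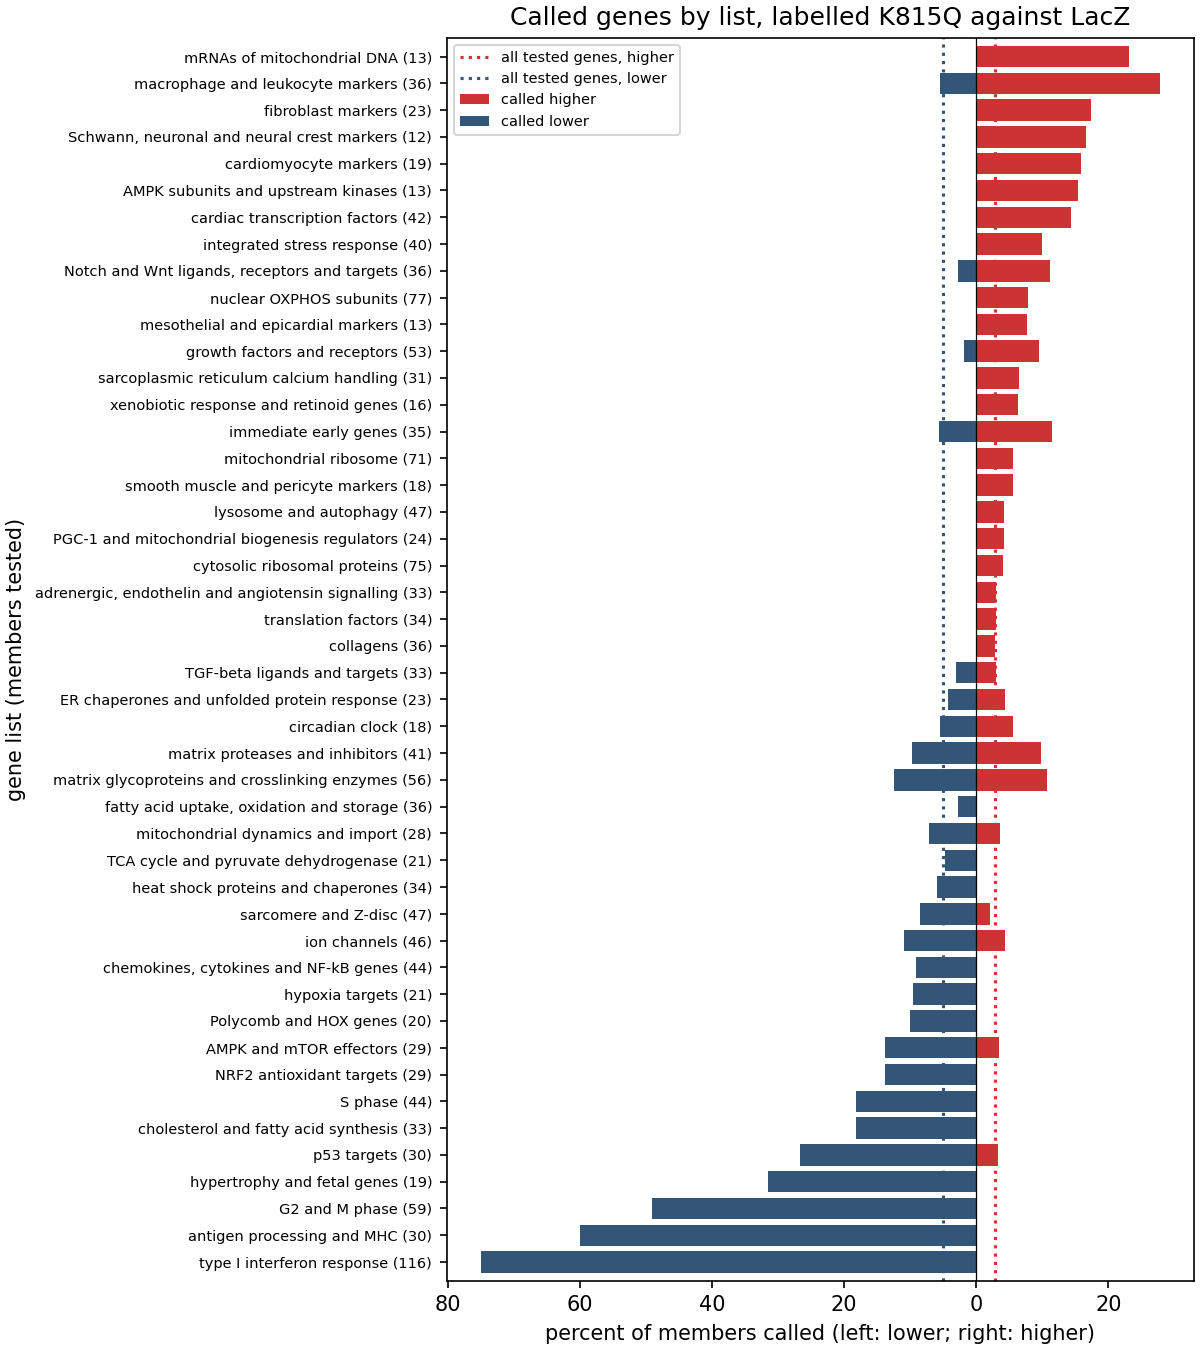
Percent of the tested members of each list that were called higher (red, right) or lower (blue, left) in the libraries labelled K815Q; numbers in brackets are members tested, dotted lines the shares over all genes (2.87% higher, 4.98% lower). Lists with fewer than 10 tested members or no call are not drawn; outside the interferon and antigen lists, the longest bar to the left is G2 and M phase and the longest to the right is macrophage markers.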

How the data were processed

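Poly(A)-selected RNA of 12 libraries was sequenced, and the 6 libraries compared here are 3 labelled K815Q and 3 LacZ, grouped by their titles. The authors deposited raw read counts for 32883 rat genes with Ensembl IDs and symbols. Per the submitters' processing notes, Trimmomatic 0.39, HISAT2 2.2.1, HTSeq 0.6.1, edgeR and the build Rnor_6.0 were used; neither annotation nor strand setting is given in the sources used here, so overlapping and antisense genes are uncertain. The 5 counters at the foot of the table name no gene and were left out of library sizes and tests. In the 6 libraries 11.7% to 12.9% of reads lay in no feature and 25.8% to 26.9% aligned to several places, so genes with close copies were counted from part of their reads.

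Counts were scaled by TMM and filtered with filterByExpr (minimum count 10, minimum total 15), which kept 14063 genes. All 12 libraries entered 1 model of group means in edgeR 4.0.16 (R 4.3.3; quasi-likelihood test, robust dispersion), and p-values were adjusted by Benjamini-Hochberg over all genes, with calls at an adjusted p under 0.05. Averages over lists used log2 CPM with a prior count of 2. A count of 3 equals 0.123 to 0.156 CPM. No pair of replicates agreed within sampling noise (chi-square per degree of freedom 5.35 to 7.05). Counts were simulated as independent libraries, with the changed genes drawn from those above 5 CPM. Of these, 97 of 100 changed 1.5-fold and 99 of 100 changed 2-fold were called. There were 8 calls among unchanged genes in 13954 tested and 2 in 13944 without any change. Changes below 1.5-fold, which most called genes had, were not simulated.

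Genes were named by a rule: a panel of Kat6a, AMPK subunits and growth and metabolism genes; in each direction 12 genes, taken by size of change among those called in all 6 leave-one-out fits, with a mean of at least 5 CPM, no overlap, a gene symbol, and on neither the interferon nor the antigen list; and up to 2 called genes per direction of each list. Not every gene picked by this rule is described above. The members and lists were chosen with earlier results of these data known. Lists were described by counts and medians and not tested. Promoters are RefSeq sequence of assembly GRCr8, matched by Ensembl ID or symbol for 10393 of 14063 genes; build and coordinates differ from those of the counts. Other settings tried were scaling by RLE or by the upper quartile, filtering at 10 counts in every library or not at all, DESeq2 1.42.0, only the 6 libraries, the replicate number as a term, a minimum of 1.2-fold, and fits without 1 library. Leaving out LacZ replicate 2 with K815Q replicate 1 was added after seeing the data.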

Additional observations from a re-analysis of the deposited data

How the results depend on the processing

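The count of called genes (1104, of which 403 higher and 701 lower) was between 999 (DESeq2) and 1528 (no filter) under the other scalings, filters and the fit of only the 6 libraries. With a 1.2-fold minimum it was 135 (17 higher, 118 lower). Leaving out 1 library at a time, it was between 360 (K815Q replicate 1) and 1182 (LacZ replicate 1), with 107 to 435 higher and 253 to 747 lower. It was also lower by more than 1.5-fold without LacZ replicate 2 (418), LacZ replicate 3 (507) and K815Q replicate 3 (733). Without both LacZ replicate 2 and K815Q replicate 1, a choice made after seeing the data, it was 181 (37 higher, 144 lower). Pairing by replicate number was not apparent: deviations from the group means correlated at 0.03, -0.04 and -0.08 for numbers 1, 2 and 3. Only K815Q replicate 1 correlated best with the library of its own number in the other group. With 3 libraries a group, these values cannot exclude shared batches. With the replicate number as a block 1280 genes were called, 1079 of them among the 1104.

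The genes picked for naming, not all of which are described above, included 106 that were called. Of these, 49 were called in all 6 leave-one-out fits. Over 1725 pairs of named gene and setting, 1348 kept direction and call, 367 lost the call, 0 gained one and 10 changed sign, all 10 for genes not called. Without 1 library, the log2 fold change of Kat6a ranged from -0.112 to 0.0318, Nppa from -0.0519 to 0.062, Myh6 from -0.0515 to 0.0173 and Ppargc1a from -0.176 to 0.00318. Without both libraries Prkab2 was 0.0179, Nppa 0.0617, Myh6 0.0168 and Myh7 0.0407, and under upper-quartile scaling Nppa was 0.00609; the cause was not tested. Depth limits genes of low level: at 0.123 to 0.156 CPM for 3 counts, differences of genes near 1 CPM rest on few reads.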

Other observations

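A further 6 called genes are given here, chosen after their values were seen. Rtp3, a receptor transporter protein, stood at 2.43, 5.13 and 3.11 CPM in LacZ and at 0.364, 0.609 and 0.208 CPM in the libraries labelled K815Q, a log2 fold change of -3.14 (SE 0.363, edgeR adjusted p 4.31e-05). The mean of Rtp3 was 0.395 CPM in WT and 0.935 CPM in K815R. C4b, a component of complement, stood at 3.31, 4.14 and 3.03 CPM and at 1.77, 1.32 and 1.30 CPM. It was below LacZ by a log2 fold change of -1.25 (edgeR adjusted p 1.69e-04) and below WT by -1.12 (edgeR adjusted p 0.00384), and against K815R it was at -0.79 (edgeR adjusted p 0.0744). Igfbp2, a binding protein of insulin-like growth factors, rose by 0.94 (SE 0.157, edgeR adjusted p 6.66e-04), from 2.51, 2.14 and 1.84 CPM to 4.37, 4.01 and 4.06 CPM. Trem2, a lipid receptor of macrophages, rose by 1.01 (SE 0.187, edgeR adjusted p 0.00186). Myo7b, a myosin known from microvilli, rose by 1.07 (SE 0.175, edgeR adjusted p 6.66e-04). No library of one group reached into the other for these 5 genes, and each was called in all 6 leave-one-out fits. Bhlhe40, a repressor of the circadian clock, stood at 91.3, 104 and 95.5 CPM in LacZ and at 69.0, 80.2 and 79.5 CPM in the libraries labelled K815Q and fell by 0.35 (SE 0.0711, edgeR adjusted p 0.00552).

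Some genes that were not called had large values in single libraries, also chosen after their values were seen. Pdcd5 was at 0.0419, 0.0891 and 1.11 CPM in LacZ and at 19.1, 0.0508 and 18.6 CPM in the libraries labelled K815Q (log2 fold change 4.87, edgeR adjusted p 0.0790); K815Q replicate 2 was at the LacZ level. Col1a2 was at 9.72, 15.7 and 10.4 CPM in LacZ and at 126, 81.0 and 9.85 CPM in the libraries labelled K815Q (log2 fold change 2.61, edgeR adjusted p 0.150), and 1 K815R library was at 74.3 CPM. Rbm39 was at 0.209, 4.06 and 7.09 CPM in LacZ and at 0.364, 0.355 and 0.208 CPM in the libraries labelled K815Q (log2 fold change -3.59, edgeR adjusted p 0.196). Apopt1 was at 3.01, 1.42 and 0.104 CPM in the libraries labelled K815Q and at no more than 0.126 CPM in LacZ. Each of these values jumped between libraries of 1 label, and the cause was not tested.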
